A study of Homo sapiens with 40 samples.

Results

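The comparison described here is the RNA-seq exon comparison of the slow RNA polymerase II mutant R749H with the wild type (WT), taken as every row of the deposited table of that comparison. It holds 14358 exon events, of 40858 rows in all tables of the series. An event is an internal exon together with the introns on either side of it, and the table gives how often the exon was joined into the transcript relative to how often it was skipped. The 14358 events are 13325 distinct exons, since some exons are listed under more than 1 pair of introns or more than 1 gene, and they carry 6332 gene identifiers. The R749H group is HEK293 Flp-in T-REx cells, derived from human embryonic kidney and built to take up 1 inducible transgene, making a form of Rpb1 that resists α-amanitin and carries R749H. The WT group is the same line making resistant Rpb1 without that substitution. In both groups the transgene was switched on with doxycycline for 12 to 16 h and the cells were then kept in α-amanitin for 42 h, which blocks the endogenous polymerase, so both run on an induced transgene. Each group had 2 RNA-seq libraries of polyA+ RNA, read as 100 bp pairs, and the labels call them biological replicates without saying what separates them, so p-values speak of these libraries and their spread may be technical. The table holds pooled ratios and no value per library, so levels below have no standard deviation, the depth is unknown, and the cell line could not be checked against marker genes.

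Rpb1 is the catalytic subunit of RNA polymerase II, and most introns of human genes are spliced while the polymerase is still on the gene. The speed of the polymerase sets how long the splice sites of an exon are exposed before the next, competing sites appear. R749H is known as a slowly elongating form. In human genes with long introns the splicing machinery mostly recognises exons as units, across the exon, whereas short introns can be recognised across the intron. Very short exons, often called microexons, lie close to the limit of that recognition and are best known from neurons. The comparison addresses how the response of an exon to a slow polymerase relates to its length, its reading frame, the introns beside it and how often it is included in WT cells.

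In R749H cells 2169 of 14358 exon events changed at a Benjamini-Hochberg adjusted p under 0.05, which is 15.1% of those tested. Of these, 1015 (7.07% of those tested) had higher inclusion and 1154 (8.04%) had lower inclusion than in WT. The median log2 change of the inclusion ratio over all events was -0.0048 in the authors' deposited table, close to no change. Higher and lower exons differed in build. Higher exons had a median length of 124 nt and lower exons 88 nt, against 109 nt for exons that did not pass. The median upstream intron, the one transcribed before the exon, was 724 nt for higher and 2484 nt for lower exons, and the median downstream intron was 1006 nt for higher and 2086 nt for lower exons. Higher exons started from a median WT inclusion of 45.4% and lower exons from 88.4%. The median size of the change was similar in the 2 directions, 15.7 percentage points up and -16.9 points down.

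Exon length separated the directions. Of changed exons of at most 27 nt, 11 were higher and 45 lower in R749H, so 19.6% were higher. The share was 26.1% at 28 to 50 nt (49 higher, 139 lower) and 34.1% at 51 to 100 nt (268 higher, 518 lower). It crossed the middle above 100 and up to 150 nt, with 52.6% (330 higher, 297 lower), and reached 63.7% above 150 and up to 200 nt (170 higher, 97 lower). Above 200 and under 300 nt it was 79.1% (125 higher, 33 lower), and at 300 nt and over 71.3% (62 higher, 25 lower). Over all events 46.8% of changed exons were higher. The median log2 change of all events of a class, changed or not, in the authors' deposited table, was -0.23 at 27 nt or less, -0.40 at 28 to 50 nt, -0.17 at 51 to 100 nt, 0.05 above 100 and up to 150 nt, 0.23 above 150 and up to 200 nt, 0.39 above 200 and under 300 nt and 0.26 at 300 nt and over. It thus grew from 28 to 50 nt up to the class under 300 nt, and both end classes lay closer to 0 than their neighbours. How often an exon changed varied far less, between 13.3% above 150 and up to 200 nt and 18.5% at 27 nt or less. Across the 14358 events the log2 change had a Pearson's r of 0.16 with log10 exon length, a weak relation given as a description, since exons of a gene share reads.

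**Figure D1:**
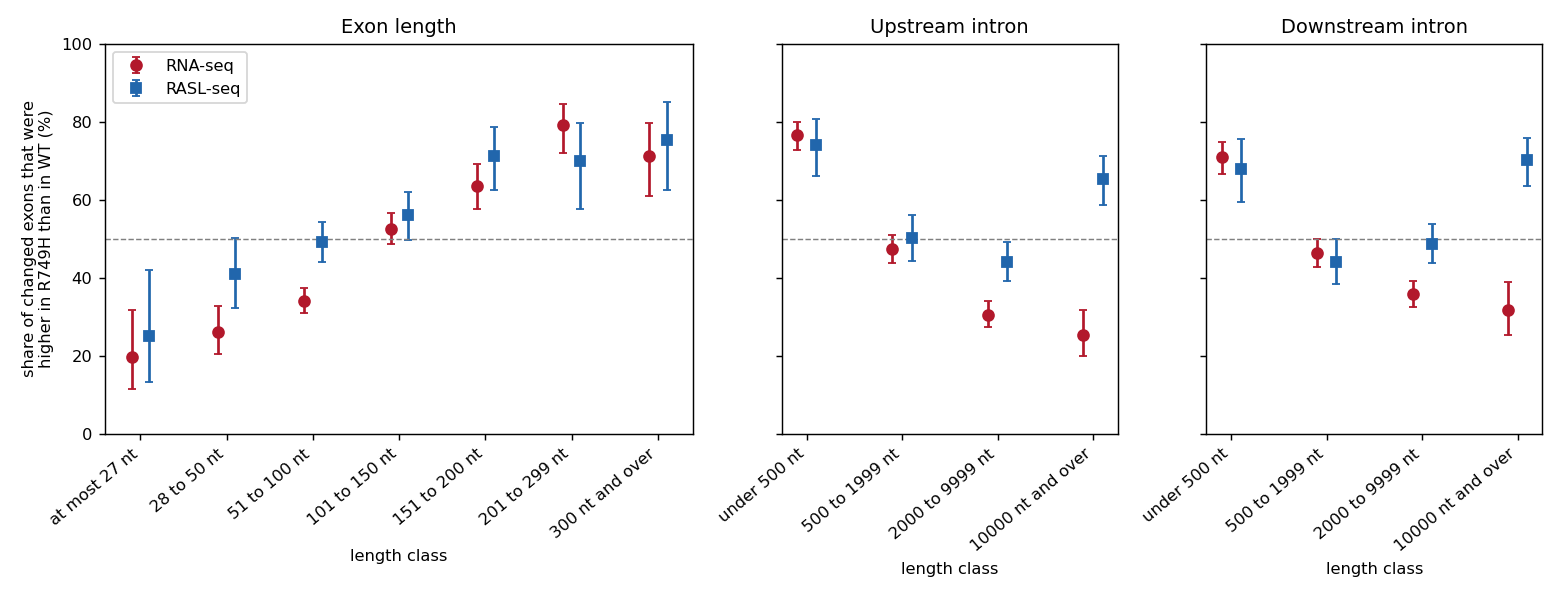
Share of changed exons that were higher in R749H than in WT (y axis, percent) by exon length, upstream intron length and downstream intron length (x axes, nt), in RNA-seq (circles) and in RASL-seq (squares), each assay with its own libraries. Bars are 95% Wilson intervals, which cover counting error only, and the dashed line marks equal numbers. The share is lowest at 27 nt or less in both assays, at 19.6% in RNA-seq and 25% in RASL-seq, and highest above 200 and under 300 nt in RNA-seq (79.1%) and at 300 nt and over in RASL-seq (75.5%), while the assays part for introns of 10000 nt and over.

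The share higher was also lower for short than for long exons in RASL-seq, which ligates pairs of probes on preselected splice junctions and counts the products, in 3 other libraries per genotype. There 991 of 2248 events changed (44.1%), and the share higher was 25% at 27 nt or less, 40.9% at 28 to 50 nt, 49.2% at 51 to 100 nt, 56.0% above 100 and up to 150 nt, 71.3% above 150 and up to 200 nt, 69.8% above 200 and under 300 nt and 75.5% at 300 nt and over. The classes above 150 nt stood in a different order in the 2 assays. In the 600 RASL-seq events that the RNA-seq table does not hold, 6 of the 17 shortest exons changed, 1 higher and 5 lower, and 12 of the 27 longest, 10 higher and 2 lower. Restricting RNA-seq to exons with 20% to 80% inclusion in WT, where an exon has room to move either way, gave a share higher that grew with every length class. It ran from 10.7% (3 higher, 25 lower) at 27 nt or less to 81.4% (35 higher, 8 lower) at 300 nt and over.

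Of 302 microexon events of at most 27 nt 56 changed in R749H (18.5%), and 45 of these fell. Counted once per exon, 52 changed, 10 higher and 42 lower, all in genes with a symbol. The 24-nt exon of SLIT2 (chromosome 4, 20526772 to 20526795), a secreted axon guidance cue, fell to 34.7% inclusion in R749H, against 91.3% in WT. Its log2 change was -4.29 in the authors' deposited table, with an implied standard error of 0.46 and an adjusted p of 3e-18. The implied standard error is the size of the log2 change divided by the normal quantile of the deposited p, an approximation used throughout because no replicate values exist. In RASL-seq the SLIT2 exon stood at 26.0% in R749H and 73.0% in WT. A 27-nt exon of ROBO1, a receptor for SLIT ligands, fell to 51% in R749H, against 86.4% in WT.

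The 18-nt exon of MACF1, which crosslinks actin and microtubules, fell to 25% in R749H, against 76.7% in WT. The 18-nt exon of GK, glycerol kinase, was included at 31.0% in R749H and 87.0% in WT. In the clathrin pathway a 9-nt exon of AP1G1, the large γ subunit of the AP-1 adaptor, fell to 13.4% in R749H, against 53.8% in WT. A 21-nt exon of CLTC, the clathrin heavy chain, fell to 6.92% in R749H, against 25.4% in WT, and a 24-nt exon of PICALM, a clathrin assembly protein, fell to 51.7% in R749H, against 75.1% in WT. Of the kinesins, KIF1A lost a 27-nt exon, at 11.0% in R749H and 41.6% in WT, whereas KIF21A gained a 21-nt exon, at 43.1% in R749H and 18.3% in WT. NSFL1C, a cofactor of the p97 ATPase, had a 6-nt exon at 8.60% in R749H and 40.1% in WT. The 12-nt exon of INCENP, a scaffold of the chromosomal passenger complex, fell to 34.0% in R749H, against 74.9% in WT. MYOM2, which encodes a protein of the muscle M-band, had a 23-nt exon at 33.3% in R749H and 91.5% in WT, with an implied standard error of 1.27 on the log2 scale. Apart from SLIT2, MACF1, AP1G1 and MYOM2, these examples were chosen after their values were seen.

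The 10 microexons that rose were in TPD52L2, HOOK2, KIF21A, ZNF226, NPIPA8, NPIPA9, TTLL3, DNM1, AGRN and SGCE. NPIPA8 and NPIPA9 are near-identical copies whose reads cannot be assigned with certainty. The 6-nt exon of HOOK2, an adaptor that links cargo to microtubule motors, rose to 73.5% in R749H, against 23.8% in WT, and it lies between introns of 92 and 104 nt. The 27-nt exon of TPD52L2 rose to 91.7% in R749H, against 25% in WT, with a wide implied standard error of 1.71 and an adjusted p of 0.026. Of the 302 microexon events, 39 were shorter than 10 nt and 5 of these changed. They were in HOOK2, NSFL1C and AP1G1, described above, and in NCAM1 and CYTH1, each of which fell at a 3-nt exon. How well reads across exons this short were aligned was not tested.

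Exons of 28 to 100 nt fell more often than they rose. In SLC25A36, a carrier of the inner mitochondrial membrane, alternative exons of 37 nt and 87 nt fell together. The 37-nt exon stood at 14.8% in R749H and 73.6% in WT, and the 87-nt exon at 3.92% in R749H and 49.2% in WT. Both events lie between the same flanks, so they share a skipping junction and are not independent. PHACTR4, a regulator of protein phosphatase 1 and actin, lost a 28-nt exon behind an intron of 50368 nt, at 18.2% in R749H and 75.6% in WT. TRAK2, an adaptor of kinesin motors, had a 77-nt exon at 9.52% in R749H and 86.4% in WT. In BBS5, a subunit of the ciliary BBSome, a 63-nt exon stood at 14.3% in R749H and 91.5% in WT, in both of its events. The largest rises of these lengths lay beside short introns. A 30-nt exon of ARHGAP26, a GTPase activating protein, rose to 84.6% in R749H, against 9.52% in WT, after an upstream intron of 135 nt. A 32-nt exon of TPCN1, an endolysosomal cation channel, rose to 64.7% in R749H, against 9.62% in WT, between introns of 260 and 231 nt. A 91-nt exon of DLGAP5, a spindle protein, rose to 83.6% in R749H, against 25.4% in WT, between introns of 2114 and 120 nt. Its log2 change was 3.90 in the authors' deposited table, with an implied standard error of 0.40 and an adjusted p of 3.33e-19.

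Exons longer than 150 nt rose more often than they fell. Several of the most precise large changes were here: an exon of MCM3, part of the replicative helicase, with an implied standard error of 0.29, and the 456-nt poison exon of the splicing factor SRSF3, with 0.31, both on the log2 scale. The MCM3 exon was included at 78.2% in R749H and 10.5% in WT, and the SRSF3 exon at 83.7% in R749H and 10.4% in WT. In RASL-seq the SRSF3 exon rose to 67.6% in R749H, against 37.7% in WT. A 237-nt exon of PRRC2C rose to 74.8% in R749H, against 19.7% in WT, and a 338-nt exon of CHKA, choline kinase, to 70.2% in R749H, against 9.38% in WT. Exceptions were long exons that fell. The 1017-nt exon of NASP, a histone chaperone, is divisible by 3 and carries coding sequence of the longer protein form. It fell to 17.4% in R749H, against 59.5% in WT. RASL-seq gave 22.6% in R749H and 52.1% in WT for the NASP exon. A 390-nt exon of BCORL1, a transcriptional corepressor, fell to 52.3% in R749H, against 92.6% in WT. A 236-nt exon of FBXO4, an F-box protein, fell to 48.3% in R749H, against 96.1% in WT, and a 192-nt exon of EFCAB14 fell to 25.4% in R749H, against 88.2% in WT. The EFCAB14 exon also fell in RASL-seq, where levels were 68.7% in R749H and 92.7% in WT. The largest rises from 100 to 150 nt and from 200 to 300 nt were in SMPD4BP and FAM86FP, and one of the largest falls in PMS2CL. All 3 are pseudogenes with near-identical copies, and their values are uncertain. Beside them, a 131-nt exon of ZBTB21, a zinc finger protein, rose to 90.3% in R749H, against 15.4% in WT, and a 128-nt exon of RNF146, a ubiquitin ligase, fell to 12% in R749H, against 87.3% in WT. A 177-nt exon of the complement receptor CR2 rose to 88.9% in R749H, against 25% in WT, and a 153-nt exon of the noncoding LINC01128 fell to 13.3% in R749H, against 73.7% in WT.

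**Figure D2:**
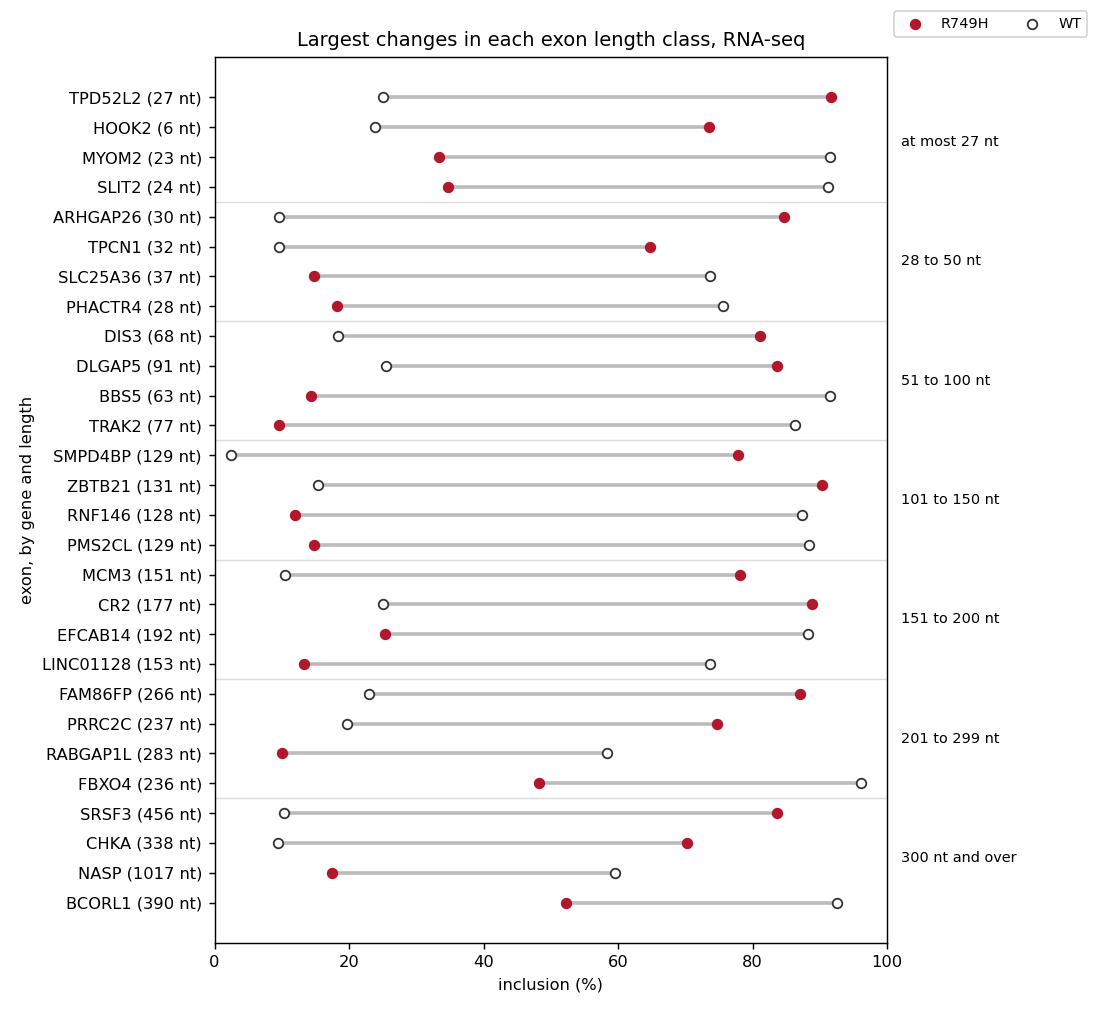
Inclusion (x axis, percent) in R749H (filled) and WT (open) of the exons with the 2 largest rises and the 2 largest falls in each length class (y axis, gene symbol and exon length), pooled over 2 RNA-seq libraries a side with no error per library. The lines join the values of 1 exon, and changes of 40 points or more, up or down, appear at every length, from the 6-nt exon of HOOK2 to the 1017-nt exon of NASP.

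The introns beside an exon also separated the directions, by 51.2 points between the end classes of upstream introns and 51.6 points between those of exon length. Of changed exons after an upstream intron under 500 nt, 408 were higher and 125 lower in R749H (76.6% higher). The share was 47.4% for upstream introns of 500 to under 2000 nt, 30.5% for 2000 to under 10000 nt and 25.4% for 10000 nt and over (53 higher, 156 lower). Downstream introns gave 71.0%, 46.4%, 35.8% and 31.7% in the same order of length. Where both introns were under 500 nt, 178 changed exons were higher and 27 lower (86.8% higher). Where both were 2000 to under 10000 nt, 73 were higher and 229 lower (24.2% higher). The changed fraction also declined with intron length, from 17.3% after upstream introns under 500 nt to 10.4% after those of 10000 nt and over, beside median implied standard errors of 0.78 and 0.88. In RASL-seq the shares higher by upstream intron were 74.1%, 50.2%, 44.1% and 65.2%, and by downstream intron 68.0%, 44.1%, 48.7% and 70.1%, from the shortest class to the longest. The assays therefore went the same way below 10000 nt for upstream introns, and differed for introns of 10000 nt and over. The difference was also present on the same events. Of events in both tables with an upstream intron of 10000 nt and over, 13 were higher and 46 lower in RNA-seq, whereas 90 were higher and 50 lower in RASL-seq. Of the 37 that changed in both assays, 36 had the same direction, and of those that passed in RASL-seq alone 76 were higher and 27 lower, while the 22 that passed in RNA-seq alone were all lower. The cause was not tested.

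The share higher declined with upstream intron length through all 4 intron classes in 5 of the 7 exon length classes. The exceptions were 28 to 50 nt and above 100 and up to 150 nt, where the share behind introns of 10000 nt and over was above that for 2000 to under 10000 nt. From 51 to under 300 nt the share higher also grew with exon length, except behind introns of 10000 nt and over. After upstream introns under 500 nt the share higher was 64.5% at 51 to 100 nt, 83.2% above 100 and up to 150 nt, 91.3% above 150 and up to 200 nt and 98.1% above 200 and under 300 nt. After upstream introns of 2000 to under 10000 nt it was 19.9%, 30.2%, 57.5% and 68.4% in the same classes. After those of 10000 nt and over it was 13.0%, 33.9%, 21.9% and 35.7%, the last from 14 changed exons. Exons above 200 and under 300 nt behind a short intron rose in 51 of 52 cases, the exception being a 283-nt exon of RABGAP1L at 10.0% in R749H and 58.3% in WT. Among the 51 that rose, a 253-nt exon of RANGAP1, the GTPase activator of RAN, stood at 77.0% in R749H and 29.6% in WT. A 281-nt exon of NT5C2, a cytosolic nucleotidase, stood at 39.5% in R749H and 3.52% in WT. A 276-nt exon of the splicing factor SRSF7 rose to 45.6% in R749H, against 14.7% in WT, and a 278-nt exon of ASNS, asparagine synthetase, to 21.7% in R749H, against 1.82% in WT. FAM86FP, FAM86B1 and FAM86B2, also in this class, are near-identical copies and not independent. At the other corner, exons of 51 to 100 nt behind an intron of 10000 nt and over fell in 53 of 62 changed exons, counted once each. A 65-nt exon of STAG2, a cohesin subunit, stood at 48.6% in R749H and 77.7% in WT. A 74-nt exon of ORC4, a subunit of the origin recognition complex, stood at 73.5% in R749H and 97.2% in WT, and a 90-nt exon of the TGF-β effector SMAD2 at 91.3% in R749H and 98.8% in WT. A 95-nt exon of the transcription factor POU6F1 had the largest of these falls in a gene with a symbol, to 25% in R749H, against 95.1% in WT. Among the 9 that rose was a 61-nt exon of NT5C2, at 65.3% in R749H and 20.5% in WT. Apart from RABGAP1L, FAM86FP and POU6F1, the examples in these corners were chosen after their values were seen.

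Microexons departed from the length order when their upstream intron was short. With an upstream intron under 500 nt, 9 of 12 changed events of at most 27 nt were higher (75%), whereas with 500 to under 2000 nt 1 of 19 was higher, with 2000 to under 10000 nt 1 of 22 and with 10000 nt and over none of 3. HOOK2, KIF21A, ZNF226, TTLL3, DNM1 and AGRN were in the short-intron class, with upstream introns of 92, 483, 445, 142, 437 and 194 nt. The other 3 of the 9 are the exons of the near-identical NPIPA8 and NPIPA9, one of them listed under a further gene, and without these 6 of 9 were higher (66.7%).

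**Figure D3:**
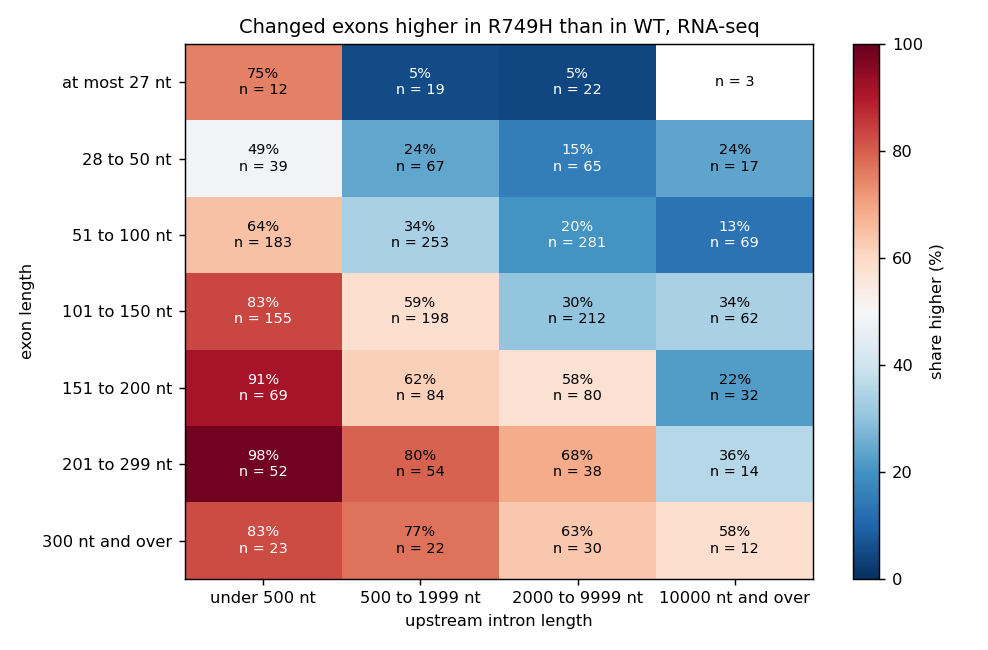
Share of changed exons that were higher in R749H than in WT (colour, percent) by exon length (rows, nt) and upstream intron length (columns, nt) in RNA-seq, with the number of changed events in each cell and no colour where it is under 10. The share is low where exons of 51 to 100 nt follow introns of 10000 nt and over (13.0%) and high where exons above 200 and under 300 nt follow introns under 500 nt (98.1%).

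Reading frame gave a smaller split. An exon whose length is divisible by 3 keeps the frame whether it is included or skipped. Of the 6248 such events 16.2% changed, 434 higher and 580 lower (42.8% higher). Of the 8110 others 14.2% changed, 581 higher and 574 lower (50.3% higher). Lengths with a remainder of 1 had 48.3% higher and those with a remainder of 2 had 52.0%. Exons divisible by 3 thus made up 50.3% of lower exons, 42.8% of higher exons and 42.9% of exons that did not pass. Frame and length were linked, since 215 of the 302 microexon events were divisible by 3. Within length classes the frames differed little above 100 and up to 150 nt (53.0% higher when divisible by 3, 52.3% when not), above 150 and up to 200 nt (64.7% and 63.0%) and above 200 and under 300 nt (77.8% and 80.2%). They differed more at 28 to 50 nt (21.8% and 31.0%) and 51 to 100 nt (30.7% and 37.5%). At 300 nt and over 58.3% of those divisible by 3 were higher (21 higher, 15 lower), against 80.4% of the others (41 higher, 10 lower).

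The frames differed most at 50% to 80% WT inclusion, where 35.0% of changed exons divisible by 3 and 52.4% of the others were higher. At 20% to 50% these shares were 50% and 56.1%, and at 80% to 95% they were 38.4% and 49.6%. At 50% to 80% in WT, 27.8% of exons divisible by 3 changed, 71 higher and 132 lower, against 19.7% of the others, 77 higher and 70 lower. The excess lay in exons that fell, at 18.1% of those divisible by 3 and 9.36% of the others, while those that rose made up 9.73% and 10.3%. In RASL-seq the direction by frame was the same, with 49.0% higher among changed exons divisible by 3 and 62.4% among the others. This gap was wider than in RNA-seq over all events of each assay, but not on the events measured in both. On those, RNA-seq had 30.6% and 49.1% higher and RASL-seq 48.8% and 63.8%, in the same order. Of exons divisible by 3, the largest rise not named so far was a 138-nt exon of TM2D1, at 86.2% in R749H and 15.8% in WT. The largest fall not named so far was a 69-nt exon of ST7, at 4.46% in R749H and 74.1% in WT. RASL-seq gave 12.4% in R749H and 48.4% in WT for the ST7 exon. Of the other frames, a 113-nt exon of the noncoding RNA NR2F1-AS1 rose to 73.9% in R749H, against 11.4% in WT. A 121-nt exon of PKD2, the cation channel polycystin-2, fell to 39.0% in R749H, against 98.5% in WT.

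**Figure D4:**
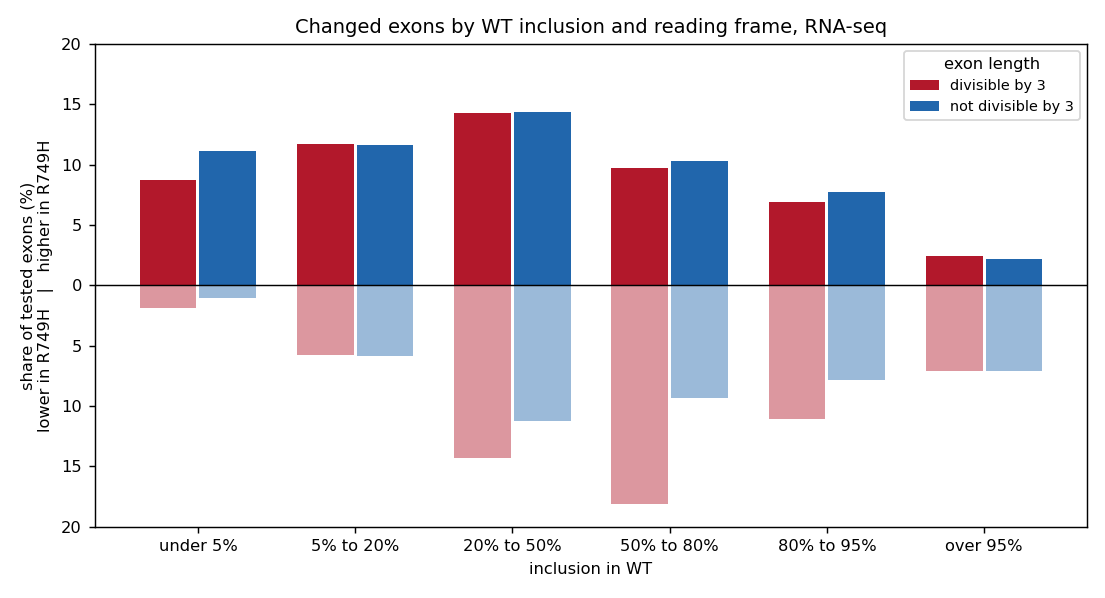
Share of tested exons (y axis, percent) that were higher in R749H (above the line) or lower (below it), by inclusion in WT (x axis) and by whether exon length is divisible by 3 (red) or not (blue), in RNA-seq. The bars are shares without an error, and the widest gap between frames is among exons of 50% to 80% WT inclusion that fell, 18.1% against 9.36%.

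Exons of intermediate WT inclusion changed most often in RNA-seq. At 20% to 50% in WT 27% changed, and at 50% to 80% 23.7%, against 11.6% below 5% and 9.42% above 95%. Median implied standard errors of these classes were 0.71, 0.72, 0.82 and 0.88 in the same order, so end classes passed less easily. In RASL-seq the changed fraction varied less, at 44.8%, 42.6%, 48.3%, 46.6%, 47.1% and 37.8% from the lowest to the highest WT class. The direction in RNA-seq followed the WT level. The share higher was 88.1% below 5% (133 higher, 18 lower), 66.8% at 5% to 20% and 53.1% at 20% to 50%. It was 42.3% at 50% to 80%, 44.3% at 80% to 95% and 24.4% above 95% (130 higher, 402 lower). The WT value enters the change itself. The RNA-seq calls of the events measured in both assays were also sorted by the WT level that RASL-seq measured in other libraries. The share higher was then 62.5%, 45.1%, 31.0%, 33.3%, 28.2% and 36% from the lowest to the highest class. Sorted by the RNA-seq WT level, the same events gave 85.7%, 68.3%, 45.3%, 30.1%, 31.0% and 23.6%. In the RASL-seq table, sorted by its own WT level, the share higher was 58.3%, 45.9%, 47.6%, 50.9%, 65.2% and 56.8%, with no such order. The length order was uneven over 95% in WT, with 14.5% higher at 51 to 100 nt, 35% above 100 and up to 150 nt and 33.3% above 150 and up to 200 nt. Between 50% and 80% in WT, all 15 changed microexon events fell, 88 of 127 changed exons of 51 to 100 nt fell, and 28 of 41 above 150 and up to 200 nt rose.

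Of exons almost always included in WT, over 95%, 7.12% fell and 2.30% rose, beside 8.04% and 7.07% of all events tested. The falls were small, with a median of -6.33 points. Rises, which cannot reach more than 5 points here, had a median of 2.02 points. Of the 402 falls 141 were of at least 10 points, among them FBXO4, POU6F1 and PKD2, above. Among exons nearly absent in WT, below 5%, a 132-nt exon of GAK, a kinase that acts in clathrin uncoating, rose to 64.2% in R749H, against 4.84% in WT. A 76-nt exon of IFT27, a small GTPase of the intraflagellar transport complex, rose to 44.1% in R749H, against 1.02% in WT. Between 5% and 20%, a 125-nt exon of MPHOSPH8, a reader of histone H3 methylation, rose to 81.5% in R749H, against 9.48% in WT. From 20% to 50%, a 105-nt exon of HNRNPDL, an hnRNP, rose to 88.6% in R749H, against 23.6% in WT, with an implied standard error of 0.30 on the log2 scale. From 50% to 80%, a 77-nt exon of the sodium-proton exchanger SLC9A5 fell to 2.33% in R749H, against 75% in WT, and a 105-nt exon of CRAMP1 rose to 95.6% in R749H, against 52.0% in WT. From 80% to 95%, a 119-nt exon of WDR90 rose to 98.9% in R749H, against 80.4% in WT, and a 64-nt exon of MINDY4, a deubiquitinase, fell to 28.6% in R749H, against 89.2% in WT. The largest fall in points below 5% was a 75-nt exon of the Golgi mannosidase MAN2A2, at 0.348% in R749H and 4.67% in WT. The largest fall from 5% to 20% was in the pseudogene ASNSP1 and the largest rise over 95% in NPIPA9, and both are uncertain.

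The place of an exon among the tested exons of its gene made little difference. In genes with at least 3 tested exons the share higher was 44.2% for the first tested exon, 50.6% for middle ones and 48.3% for the last, and 14.5%, 15.8% and 16.6% of them changed. Chromosomes ranged more widely. On chromosome 16, 58 changed exons were higher and 31 lower (65.2% higher). Exons of the near-identical NPIPA copies are among them and are not independent. Chromosome 8 had 39 higher and 30 lower (56.5%), and chromosome 19 had 63 and 49 (56.3%). On the X chromosome 18 were higher and 50 lower (26.5% higher), and on chromosome 18, with 26 changed exons, 6 and 20 (23.1%). Chromosome 19 had a median upstream intron of 1200 nt, chromosome 16 of 1433 nt, the X chromosome of 1691 nt and chromosome 18 of 3108 nt, against 1934.5 nt for all events. Chromosome 8 had 3049 nt, close to chromosome 18 despite its higher share.

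Of 6238 genes counted once per exon, 1534 had a changed exon, 1212 of them a single one. In the 322 genes with more than 1, all changed exons rose in 113, all fell in 103, and 106 had exons of both kinds. In these 106 genes the widest pair of a higher and a lower exon was compared. The higher exon was the longer one in 73 and the shorter one in 33, and it had the shorter upstream intron in 73. In some pairs, among them those of AFMID, DIS3, RFC5, NASP and MIR9-1HG below, an exon is a flank of its partner's event. The ratios of such a pair can share junction reads, and its exons are not independent. How many pairs are of this kind was not counted. In 18 of the 106 the exons of the pair lay under 1000 nt apart. The closest were in AFMID, kynurenine formamidase, singled out after its values were seen, where an 86-nt exon stood at 97.4% in R749H and 42.6% in WT. A 73-nt exon of AFMID, 86 nt further on, stood at 7.06% in R749H and 31.6% in WT.

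The widest such pair was in DIS3, the catalytic nuclease of the RNA exosome. Its 68-nt exon (chromosome 13, 73355427 to 73355494) rose to 81.1% in R749H, against 18.3% in WT, while the 158-nt exon that follows after 285 nt (73354984 to 73355141, on the minus strand) fell to 34.5% in R749H, against 91.5% in WT. The log2 changes were 4.26 and -4.35 in the authors' deposited table, with implied standard errors of 0.64 and 0.60. RASL-seq also had the 68-nt exon higher, at lower levels of 26.4% in R749H and 7.20% in WT. RFC5, a subunit of the clamp loader, showed the same arrangement 179 nt apart (chromosome 12). Its 126-nt exon rose to 69.6% in R749H, against 17% in WT, and its 59-nt exon fell to 20.2% in R749H, against 59.2% in WT. The 59-nt exon has 2 events, of which only 1, the event given, passed. In RASL-seq the 126-nt exon of RFC5 stood at 66.5% in R749H and 31.4% in WT, and the 59-nt exon at 19.5% in R749H and 51.1% in WT. In NASP an 80-nt exon rose to 57.1% in R749H, against 11.7% in WT, and a 73-nt exon fell to 18.8% in R749H, against 75.3% in WT, beside the fall of its 1017-nt exon. Of the 2 events of the 80-nt exon, 1 passed. CEP164, a protein of the distal appendages of centrioles, had a 147-nt exon at 84.7% in R749H and 42.5% in WT, and a 78-nt exon at 17.9% in R749H and 71.1% in WT. TPD52L2 paired its 27-nt exon with a 60-nt exon that fell to 50% in R749H, against 72.3% in WT. The noncoding RNA MIR9-1HG had a 134-nt exon at 96.3% in R749H and 35.0% in WT, and a 100-nt exon at 13.8% in R749H and 60.0% in WT.

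The genes with the most changed exons were CARD8, an inflammasome protein, and HNRNPC, which binds uridine tracts in nascent transcripts, with 6 each. Of the 6 in CARD8 2 rose, the larger being a 137-nt exon at 89.5% in R749H and 36.4% in WT, and 4 fell. In HNRNPC 2 rose, both below 2.5% in R749H and below 1% in WT, and 4 fell. Of these 4, 2 share their downstream end and differ in length (26 nt and 272 nt). The 272-nt form stood at 41.7% in R749H and 64.2% in WT. RHOC, a small GTPase, RBM23, a splicing regulator, and MRPL55, a mitochondrial ribosomal protein, had 5 each, as had NPIPA9 (4 higher, 1 lower) and HNRNPH1 (3 higher, 2 lower). The 5 of RHOC overlap one another and fell by 16.6 to 17.3 points, so they share reads. In RASL-seq the RHOC exon did not pass, at 33.1% in R749H and 36.9% in WT. The 5 of MRPL55 form 2 overlapping groups between introns of at most 480 nt, and all rose. Its 161-nt form stood at 55.0% in R749H and 3.20% in WT, with a log2 change of 5.21 in the authors' deposited table and an implied standard error of 0.34.

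Splicing factors that regulate their own transcripts changed more often than exons at large, in 50 of 136 exons (36.8%), 30 higher and 20 lower, beside 14.9% of all 13325 distinct exons. Their median implied standard error was 0.46, against 0.81 for all distinct exons, so a change of a given size passed more easily, and how much of the excess this accounts for was not tested. Besides SRSF3 and HNRNPDL, which rose, a 59-nt exon of CLK4, a kinase of SR proteins, fell to 7.63% in R749H, against 46.3% in WT. A 92-nt exon of HNRNPH1 fell to 49.9% in R749H, against 85.0% in WT.

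Exons of genes known for neural microexons fell more often than they rose, with 6 higher and 16 lower of 113. SLIT2 and MACF1 fell most. An 83-nt exon of ITSN1, an endocytic scaffold, rose to 63.8% in R749H, against 13.5% in WT, and a 95-nt exon of BRSK2, a kinase of neuronal polarity, to 93.8% in R749H, against 51.4% in WT. Genes with exons that switch between epithelial and mesenchymal cells had 5 higher and 19 lower of 104 exons. A 73-nt exon of TCF7L2, a transcription factor of WNT signalling, fell to 3.57% in R749H, against 59.3% in WT (11.4% and 37.5% in RASL-seq, in that order). A 117-nt exon of LSM14B stood at 19.5% in R749H and 73.6% in WT. The largest rises were a 78-nt exon of RALGPS2, at 81.1% in R749H and 27.9% in WT, and a 267-nt exon of the receptor FGFR1, at 82.8% in R749H and 45.4% in WT, which both also rose in RASL-seq.

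Of genes long used as models of alternative splicing, 7 exons rose and 11 fell of 69. MDM4, an inhibitor of p53, gained an exon with 2 possible starts, and its 68-nt form stood at 88.0% in R749H and 41.0% in WT. A 33-nt exon of NUMB, an inhibitor of NOTCH signalling, fell to 18.8% in R749H, against 59.4% in WT. An 87-nt exon of MAPT, which encodes tau, fell to 30.2% in R749H, against 64.0% in WT, but did not pass in RASL-seq, with 31.6% in R749H and 33.9% in WT. The neural microexon, epithelial and mesenchymal and model lists changed in 19.5%, 23.1% and 26.1% of exons, and their median WT inclusion was 68.8%, 70.5% and 70.0%, against 90.5% for all distinct exons. The remaining lists changed at rates nearer the 14.9% of all distinct exons, between 14.9% and 18.6%. Median log2 changes in the authors' deposited table were 0.03 for the autoregulated list, -0.13, -0.28 and -0.48 for these 3 lists in the order given, and -0.16 to -0.06 for the remaining ones, against 0.0003 for all distinct exons. Membrane traffic genes had 9 higher and 11 lower of 126, with a 173-nt exon of AP1G1 at 55.6% in R749H and 19.0% in WT while its 9-nt exon fell. Centrosome and cilium genes had 9 higher and 13 lower of 118, among them a 132-nt exon of the kinase NEK1 after an intron of 80 nt, at 70.0% in R749H and 20.6% in WT. DNA replication and repair genes had 12 higher and 14 lower of 175.

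Exons that changed in both assays mostly shared a direction. Of 1648 events measured in both, 276 changed in both, and 271 of these (98.2%) had the same direction, 112 higher and 159 lower. Of the 411 that changed in RNA-seq, 384 (93.4%) had the same sign in RASL-seq whether or not they passed there. The balance of calls on the 1648 events differed, with 155 higher and 256 lower in RNA-seq but 418 higher and 344 lower in RASL-seq. Events that passed in RASL-seq alone were 303 higher and 183 lower. The log2 changes of the 1648 events had a Pearson's r of 0.64 between assays, and the WT levels 0.71, given as descriptions. Sizes were smaller in RASL-seq for exons such as DIS3, EFCAB14 and SRSF3, and inclusion levels are not on a common scale between assays.

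**Figure D5:**
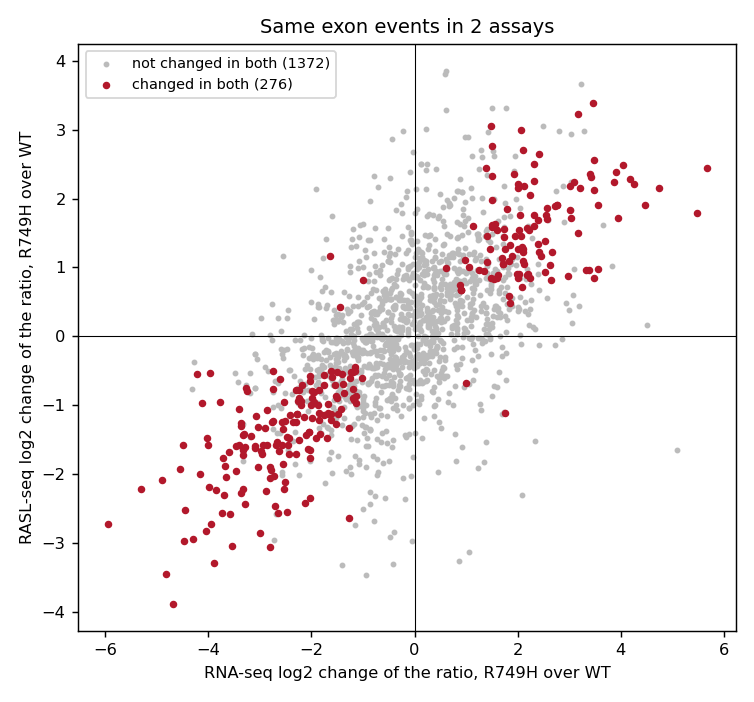
Log2 change of the inclusion ratio, R749H over WT, in RNA-seq (x axis) and RASL-seq (y axis) for the 1648 exon events in both tables, with the 276 that changed in both in red and the other 1372 in grey. Of the red points 271 lie in the quadrants of equal sign.

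Precisely measured exons that did not pass were found among strongly alternative exons as well. A 44-nt exon of the host gene SNHG29 stood at 55.4% in R749H and 56.3% in WT, with a log2 change of -0.05 in the authors' deposited table and an interval of -0.51 to 0.41 from the implied standard error. A 67-nt exon of U2AF1, which encodes the small subunit of the 3′ splice site factor, stood at 73.2% in R749H and 77.5% in WT, with an interval of -0.83 to 0.15. A 51-nt exon of HNRNPH1 was at 62.8% in R749H and 63.4% in WT, although its 92-nt exon fell. A 165-nt exon of the guanylate kinase GUK1 was at 32.4% in R749H and 34.2% in WT, and the 25-nt exon of the ribosomal protein gene RPS24 at 64.3% in R749H and 68.7% in WT. The intervals of these 5 exons lay between -0.83 and 0.46 on the log2 scale, and changes within them cannot be told from none.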

How the data were processed

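The data are the authors' deposited comparison of R749H with WT for RNA-seq exons, and for a second assay the deposited RASL-seq comparison of the same genotypes. Per the file headers, each row holds the natural log of the WT inclusion ratio, its log2 change in R749H, and a p-value deposited by the authors without adjustment. Neither the test behind it nor any role of the spread between libraries is given in the sources used here. Build GRCh37 and the tools edgeR 3.7.17, Bowtie 0.12.7 and TopHat 1.4.1 are named in the submitters' processing notes, without their roles in these tables. Only TopHat is described in the labels' protocols, which map the libraries individually.

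Inclusion was computed as ratio/(1 + ratio) for each group, in Python 3.11.15 with pandas 2.3.3, NumPy 2.4.6 and SciPy 1.17.1. It was not corrected for an included exon having 2 junctions and a skipped one 1. Deposited p-values were adjusted by Benjamini-Hochberg over each whole table, with a threshold of 0.05, and the code was tested on simulated data. Exon length is the deposited end minus the deposited start, which counts from 0, and intron lengths reach from it to the deposited flanks, by strand. Printed positions are 1-based. Symbols were found for 6156 of 6332 identifiers, and 21 rows have a flank of no length. Classes of exons are described by counts and medians, with no test, because exons of a gene share reads.

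Exons were named, in genes with a symbol and once per exon, as the largest rises and falls in points in each length class, WT class, frame and gene list, the 6 widest opposite pairs in a gene, the first 5 genes by number of changed exons (ties by fewest tested exons), and the 5 unchanged exons of smallest implied error at 20% to 80% WT inclusion with a deposited p of 0.1 to 0.9. Of the exons so named, 1 is not reported here. The gene lists and classes were chosen with earlier results of these data known. GRO-seq and the other mutants are not analysed here.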

Additional observations from a re-analysis of the deposited data

How the results depend on the processing

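Differences between classes are given here as the share higher in the last class minus that in the first, in percentage points. The count of changed exon events, 2169, was 1368 at a threshold of 0.01, 1153 with the Benjamini-Yekutieli adjustment and 1434 with a change of at least 10 points also required. The share higher, 46.8%, was 50.6% for WT inclusion of 5% to 95%. The length difference, 51.6 points, stayed between 45.9 and 60.0 under the 10 alternatives tried, RASL-seq included. The WT level difference (over 95% minus under 5%), -63.6, was -72.3 at 0.01, -56.4 at 0.1, -75.4 with Benjamini-Yekutieli and -100 with at least 10 points. It was -26.5 with the WT level from RASL-seq, on the events measured in both assays only, and -1.49 in RASL-seq itself. The -100 was fixed in advance, since an exon under 5% cannot fall by 10 points and an exon over 95% cannot rise by 10 points. The frame difference (divisible by 3 minus not), -7.50, was -13.4 over all RASL-seq events, which are another set of events. Introns under 500 nt minus 10000 nt and over gave 51.2 upstream and 39.3 downstream, against 8.86 and -2.14 in RASL-seq, where the downstream difference turned. The place difference (first tested minus last tested), -4.08, was 4.42 with at least 10 points. The alternatives that use the RASL-seq table in place of RNA-seq were chosen after seeing the data. Apart from the -100, the cause of these moves was not tested. With the ratio halved for junction number, 25 of the 104 named exons moved by 10 points or more, without a change in any p-value. No paired analysis was possible because the tables hold no value per library, and no library could be left out. Depth is unknown, so exons with few reads could be recognised only by their implied error.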
